A study of Mus musculus with 2 samples.

Results

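The 10 genes described here are the NF-kB subunits Nfkb1, Nfkb2, Rel, Rela and Relb and the feedback genes Nfkbia, Nfkbie, Nfkbiz, Tnfaip3 and Traf1. They were taken by name, and all 10 were among the 17751 genes measured. Transcripts and surface antibody tags were counted in single splenic CD11c+ MHCII+ cells of C57BL/6 mice, a population of conventional dendritic cells (cDCs). Each genotype was 1 library from the pooled spleens of 6 female mice of 8 weeks, 12224 cells for WT and 12119 for Batf3-/-. The knockout is a germline loss of Batf3, a transcription factor that cDC1 need, in all cells, and those mice were bred in house, whereas the WT mice came from a supplier. Genotype, source and library therefore cannot be told apart. No treatment is given for either group. Spleens of both were digested enzymatically and depleted of T and B cells before the sort. The experiment was done once, so no comparison below has a replicate.

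NF-kB proteins bind DNA as pairs of subunits. At rest most are held in the cytoplasm by inhibitors of the IkB family. Signals from Toll-like and cytokine receptors activate a kinase that has the IkB proteins destroyed, which frees Rela and Rel with the p50 product of Nfkb1 (the canonical pathway), and receptors such as Cd40 and the lymphotoxin receptor lead to processing of the Nfkb2 product into p52, the partner of Relb (the non-canonical pathway). Nfkbia and Nfkbie encode IkB alpha and IkB epsilon, Nfkbiz encodes the nuclear IkB zeta, Tnfaip3 encodes the ubiquitin-editing enzyme A20, and Traf1 encodes an adaptor of TNF receptors. Many of these genes are NF-kB targets themselves. In cDCs Relb is known as a regulator of maturation, the programme in which the cells raise Ccr7 and migrate to T cell zones. Transcript levels say nothing of where the proteins are or how they are processed.

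The 20 deposited clusters, C0 to C19, were used as they stand. C1, C8 and C12 were compared as the mature ones. Their mature marker sums were higher than those of the resting clusters. The 7 mature markers (Ccr7, Cd40, Cd83, Fas, Cd274, Fscn1 and Il4i1) summed in WT and Batf3-/- to 3747 and 4168 CPM (UMIs of a gene per 1e+06 UMIs) in C1, to 2545 and 3105 in C8 and to 5692 and 6617 in C12, against 316 and 367 in C0 and 385 and 476 in C4. None of the 7 was at 0 in any of these clusters. C8 differed from C1 in kind, with Ccr7 at 693 CPM and Cd83 at 1444 CPM in WT but Fscn1 at only 84.0 CPM and Il4i1 at 169.6 CPM, where C1 had 653 and 1193 CPM. The C8 sum in WT was thus mostly Ccr7 and Cd83. Cd40 was not higher in C8 than in C0, at 51.6 against 61.5 CPM in WT and 60.1 against 68.5 CPM in Batf3-/-. Markers of cDC2 summed in WT to 774 CPM in C0 and 682 CPM in C8 and those of cDC1 to 3209 CPM in C4, so C8 was set against C0 and C12 against C4. In C12 the cDC1 sum was 612 CPM in WT, of which Irf8 made up 454 CPM and Tlr3 1.68 CPM. In the 31 Batf3-/- cells of C12 it was 691 CPM, with 186 of 191 UMIs from Irf8 and Tlr3 at 0, so that this sum rests mostly on Irf8. The cDC1 label of C12 is that of the study, which reports CD24, CD8A and XCR1 protein as kept on C12 cells. C1 had 315 CPM of the cDC2 list, less than C0 and C8, and 127 CPM of the cDC1 list, less than C4 and C12 but more than the 39.7 CPM of C0, and was set against C0, the largest resting cDC2 cluster, with C2 and C3 as further references.

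A level is the summed UMIs of a gene in a cluster and library over all UMIs there, in CPM. A difference is the log2 ratio of such levels, and the brackets give its exact 95% interval. These intervals cover counting error only, not the spread between mice. Since the clusters were built from these same transcripts, the differences between them are a description without a test, and a gene is called higher or lower past 2-fold. The 3' tags carry no length correction, so levels are not compared between genes. Median depth per cell was 8374.5 UMIs in WT and 8516 in Batf3-/-. It was 6176 and 6753 in C1, 6648 and 7187 in C0, 15398.5 and 14220 in C4 and 6887.5 and 8051 in C12. A level is thus a share of the UMIs of a cluster and not an amount per cell. The libraries shared 56 cell barcodes, and 541 WT and 244 Batf3-/- cells were scored as doublets but kept. In Batf3-/- C4 and C12 held only 31 and 31 cells, against 2202 and 394 in WT.

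NF-kB binds DNA at kB sites, and 5 members have matches to the kB consensus close to their own starts. They are shown because feedback by NF-kB on its own genes is what joins the list. In the RefSeq promoter table (GRCm38.p6, the 250 bases before each start), 7 of the 10 members were present with 10 promoters. The kB consensus, searched on both strands with overlapping matches kept, lay in 7 of these 10 promoters and in 5 of the 7 genes, against 3.90% of all 32851 promoters and 4.46% of genes. The exact letters capitalised in the second Nfkb2 window lay in 1 member promoter and in 0.140% of all. A loose form, GGG and CC with any 5 bases between them, lay in 45.8% of all promoters and sets little apart. Rela and Traf1 had no match to the consensus in this window, and Nfkb1, Relb and Nfkbiz were not matched in the table. A match is a description of letters and not evidence of binding. In GENCODE M21 (GRCm38) Nfkb2 and Rela both lie on chromosome 19, and the others on chromosomes 2 (Traf1), 3 (Nfkb1), 7 (Relb), 10 (Tnfaip3), 11 (Rel), 12 (Nfkbia), 16 (Nfkbiz) and 17 (Nfkbie). Each window runs 5' to 3' on the strand of its gene with the match in capitals.

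The match of Rel (minus strand, chr11:23771042-23771071, no annotated gene there) begins 92 bases before the start. That of Nfkbia (minus strand, chr12:55492657-55492686, no annotated gene) begins 29 bases before it, and that of Nfkbie (plus strand, chr17:45555584-45555613, no annotated gene) 106 bases before it. Nfkb2 (plus strand) is shown at chr19:46304688-46304717, 39 bases before one start and within a UTR exon of other transcripts of Nfkb2 and of AC114539.1, and at chr19:46305695-46305724, 225 bases before another start and in a UTR exon of Nfkb2. Tnfaip3 (minus strand) is shown at chr10:19015516-19015545, 125 bases before a start and in an intron of a longer Tnfaip3 transcript.
Rel: cgtaagcagcGGGAAATCCCcccccctccc
Nfkbia: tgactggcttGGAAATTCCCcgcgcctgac
Nfkbie: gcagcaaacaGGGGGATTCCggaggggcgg
Nfkb2, first site: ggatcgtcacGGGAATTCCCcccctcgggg
Nfkb2, second site: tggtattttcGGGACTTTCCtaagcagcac
Tnfaip3: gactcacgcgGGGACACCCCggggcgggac
The Rel site and the first Nfkb2 site read as kB matches on either strand, and the second Nfkb2 site is the 1 exact match to the strict form among the members. Exons of Nfkb2 overlap those of Psd and AC114539.1 on the other strand, and the handling of strand in the counting is not given in the sources used here, so its level is less certain than the others.

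Across all clusters no single one was highest for every member. Among the clusters with at least 50 cells in WT, Relb was highest in C1 at 1002 CPM (95% interval 974 to 1030.1), followed by C9 at 791 CPM and C12 at 720.5 CPM, which did not differ beyond counting error, then C8 at 349 CPM, and lowest in C6 at 32.4 CPM. Nfkb2 was highest in C12 at 155 CPM (95% interval 141 to 170.2) and in C1 at 141 CPM, which did not differ beyond counting error. Traf1 was highest in C12 at 1967 CPM (95% interval 1917 to 2018), then in C9 at 1495 CPM and C1 at 1396 CPM. These 3 genes, the non-canonical subunits and the adaptor, thus had C1, C9 and C12 at the top. Rel instead was highest in C8 at 1133 CPM (95% interval 1100.4 to 1165), with C9 next at 472 CPM, C1 at 373 CPM and C12 at 369 CPM, and the last pair overlapped. Tnfaip3 was also highest in C8 at 175 CPM (95% interval 162 to 188), not apart from C12 at 162 CPM. Nfkbia was highest in C1 at 1101 CPM (95% interval 1072 to 1131). The top of the Nfkbie order was flat, with 167 CPM in C8, 159.6 CPM in C16, 143 CPM in C9 and 142 CPM in C12, each neighbour within counting error of the next. The remaining 3 members had other orders. Nfkb1 was highest in C3, a resting cluster, at 643 CPM (95% interval 623 to 664), followed by the cycling clusters C10 at 587 CPM, C7 at 563 CPM and C5 at 558 CPM. Nfkbiz was highest in C9 at 250.2 CPM and in the monocyte cluster C15 at 235 CPM. Rela ran from 63.0 CPM in C12 through 55.5 CPM in C1 and 55.5 CPM in C8, with each of the first 5 in its order within counting error of the next.

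**Figure D1:**
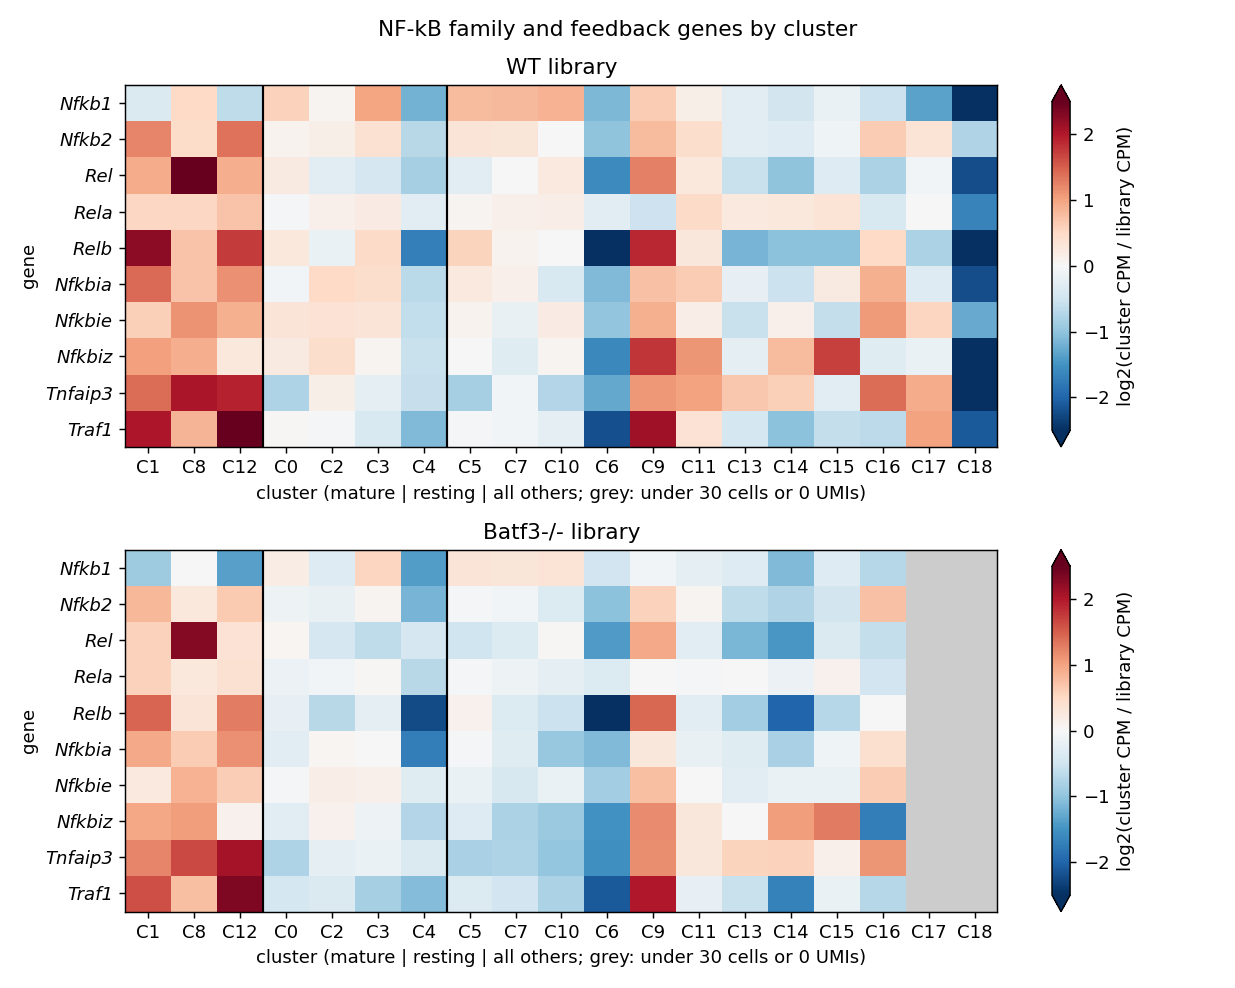
Level of each of the 10 members (rows) in each cluster (columns) as log2 of cluster CPM over whole-library CPM, WT and Batf3-/- in separate panels; red is above the library level, blue below it and grey a cluster with fewer than 30 cells; C19 is not drawn. Relb and Traf1 are reddest in C1, C9 and C12, Tnfaip3 in C8 and C12, Rel in C8 ( 1133 CPM in WT), and Nfkb1 in C3 (643 CPM in WT).

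The order in Batf3-/- was much the same, with C4 and C12 left out of it for their few cells. Rel was again highest in C8 at 1135 CPM (95% interval 1104 to 1168), with C9 next at 449 CPM, and lowest in the plasmacytoid cluster C14 at 84.4 CPM. Relb was highest in C1 at 1015 CPM (95% interval 998 to 1032), but here C9 at 1001 CPM was within counting error of it. The lowest Relb level was again that of C6, at 60.2 CPM. Traf1 was highest in C9 at 1790.5 CPM (95% interval 1702 to 1882) and second in C1 at 1354 CPM. Nfkb1 was highest in C3 at 664 CPM (95% interval 652 to 678), as in WT. Tnfaip3 was highest in C8 at 138 CPM (95% interval 127 to 149), ahead of C1 at 103 CPM, as in WT. For Nfkbiz C15 came first at 156 CPM (95% interval 121 to 198), within counting error of C9 and C8.

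Between C1 and C0, 5 of the 10 members were at least 2-fold higher in C1 in WT, beside 7.89% of the 7126 genes tested, and 5 were in Batf3-/-, beside 8.18% of 7125. Relb, Nfkbia, Tnfaip3 and Traf1 passed 2-fold in both libraries, Nfkb2 in WT and Nfkbiz in Batf3-/-. The median log2 ratio of the members was 0.96 in WT, against -0.17 over all tested genes, and 1.09 against -0.20 in Batf3-/-, and all 10 passed the filter on low values. Set against that all-gene median, each member's ratio would be higher by its size. Relb was at 1002 CPM in C1 and 257 CPM in C0 of the WT library, and 1015 and 319.5 CPM in the Batf3-/- library. Its log2 ratio was 1.96 (1.91 to 2.02) in WT and 1.67 (1.63 to 1.71) in Batf3-/-. Nfkb2, whose product pairs with Relb, was at 141 CPM in C1 and 64.8 CPM in C0 of the WT library, and 151 and 77.9 CPM in the Batf3-/- library. The ratio was 1.12 (0.99 to 1.26) in WT and 0.96 (0.87 to 1.05) in Batf3-/-, on either side of 2-fold. Thus of the non-canonical subunits Relb passed 2-fold in both libraries and Nfkb2 in WT alone.

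The canonical subunits differed less or the other way. Rel was at 373 CPM in C1 and 228 CPM in C0 of the WT library, and 346 and 238 CPM in the Batf3-/- library, a log2 ratio of 0.71 (0.63 to 0.79) in WT and 0.54 (0.48 to 0.60) in Batf3-/-. Rela, which encodes p65, was at 55.5 CPM in C1 and 37.9 CPM in C0 of the WT library, and 66.5 and 40.3 CPM in the Batf3-/- library, with ratios of 0.55 (0.35 to 0.75) in WT and 0.72 (0.59 to 0.86) in Batf3-/-. Nfkb1, the source of p50, was the 1 member that was lower in C1, at 252 CPM in C1 and 482 CPM in C0 of the WT library, and 247 and 516 CPM in the Batf3-/- library. Its log2 ratio was -0.93 (-1.02 to -0.85) in WT and -1.06 (-1.12 to -1.01) in Batf3-/-, so it passed 2-fold downwards in Batf3-/-, where 9.01% of tested genes were that much lower.

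Of the feedback genes, Tnfaip3 had the largest ratio of the members in WT. It was 2.17 (2.00 to 2.34) in WT and 2.00 (1.86 to 2.15) in Batf3-/-, from levels of 24.8 and 25.6 CPM in C0 to 112 and 103 CPM in C1. Traf1 was at 1396 CPM in C1 and 351 CPM in C0 of the WT library, and 1354 and 326 CPM in the Batf3-/- library, a ratio of 1.99 (1.94 to 2.04) in WT and 2.06 (2.02 to 2.10) in Batf3-/-. Nfkbia was at 1101 CPM in C1 and 392 CPM in C0 of the WT library, and 1030.5 and 444 CPM in the Batf3-/- library, a ratio of 1.49 (1.44 to 1.54) in WT and 1.21 (1.18 to 1.25) in Batf3-/-. Tnfaip3, Nfkbia and Traf1 were thus all at least 2-fold higher in C1 of each library. Nfkbie, the other cytoplasmic inhibitor, was not: its ratio was 0.28 (0.14 to 0.41) in WT and 0.27 (0.17 to 0.36) in Batf3-/-. For Nfkbiz the libraries differed at rest, at 147 CPM in C1 and 84.5 CPM in C0 of the WT library, and 124 and 53.1 CPM in the Batf3-/- library, and its ratio was 0.80 (0.67 to 0.92) in WT and 1.22 (1.12 to 1.33) in Batf3-/-. With C2 as the resting reference 5 members were 2-fold higher in C1 in each library (8.74% and 9.27% of all tested), and with C3 as the reference 4 in WT and 5 in Batf3-/- (8.99% and 8.78%). Nfkb1 was lower in C1 against each of the 3 references.

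In the cDC1 pair C12 and C4 the members differed more widely. In WT 7 of 10 were at least 2-fold higher in C12, beside 14.9% of 6721 tested genes, and in Batf3-/- 6, beside 16.5% of 4220. The members' median was 1.78 against -0.20 over all tested in WT and 1.44 against -0.32 in Batf3-/-, where each side held 31 cells. Traf1 was at 1967 CPM in C12 and 162 CPM in C4 of the WT library, and 2249 and 210.4 CPM in the Batf3-/- library, a log2 ratio of 3.60 (3.55 to 3.66) in WT and 3.42 (3.11 to 3.74) in Batf3-/-. Relb was at 720.5 CPM in C12 and 65.0 CPM in C4 of the WT library, and 893 and 78.6 CPM in the Batf3-/- library, a ratio of 3.47 (3.38 to 3.56) in WT and 3.51 (3.00 to 4.05) in Batf3-/-. Resting cDC1 had less of both transcripts than C0, and in C12 of WT both were within 2-fold of their levels in C1. Tnfaip3 was at 162 CPM in C12 and 28.8 CPM in C4 of the WT library, and 184 and 34.0 CPM in the Batf3-/- library, a ratio of 2.49 (2.33 to 2.65) in WT and 2.44 (1.61 to 3.35) in Batf3-/-. Nfkb2 stood at 155 against 38.0 CPM in WT, with ratios of 2.03 (1.88 to 2.19) in WT and 1.81 (0.96 to 2.71) in Batf3-/-. Nfkbia had ratios of 1.83 (1.76 to 1.89) in WT and 2.87 (2.5 to 3.25) in Batf3-/-. These 5 genes, the non-canonical subunits among them, passed 2-fold in both libraries. Rel was at 369 CPM in C12 and 111 CPM in C4 of the WT library, and 296 and 172 CPM in the Batf3-/- library, a ratio of 1.73 (1.63 to 1.83) in WT and 0.78 (0.32 to 1.25) in Batf3-/-, and so passed 2-fold only in WT. Nfkbie likewise had 1.5 (1.34 to 1.65) in WT and 0.91 (0.24 to 1.60) in Batf3-/-. Rela was at 63.0 against 31.6 CPM in WT, and its ratio was 1.0 (0.76 to 1.22) in WT and 1.07 (-0.082 to 2.24) in Batf3-/-, so it passed 2-fold in Batf3-/- alone, with an interval that spans 0. For Nfkbiz the ratio was 0.83 (0.63 to 1.02) in WT and 0.84 (-0.16 to 1.86) in Batf3-/-. Nfkb1 was the least changed, at 208 CPM in C12 and 143 CPM in C4 of the WT library, and 177 and 174 CPM in the Batf3-/- library. Its ratios were 0.54 (0.42 to 0.66) in WT and 0.024 (-0.52 to 0.55) in Batf3-/-, so as a share of UMIs it was not lower than in C4. Against the pooled resting cells of C0, C2, C3 and C4 it was lower, at -0.60 in WT and -1.53 in Batf3-/-. C4 gave that pool 2202 cells in WT and 31 in Batf3-/-, so the pools are not alike. C4 itself had less Nfkb1 than C0, with a log2 ratio of -1.75 (-1.80 to -1.71) in WT.

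**Figure D2:**
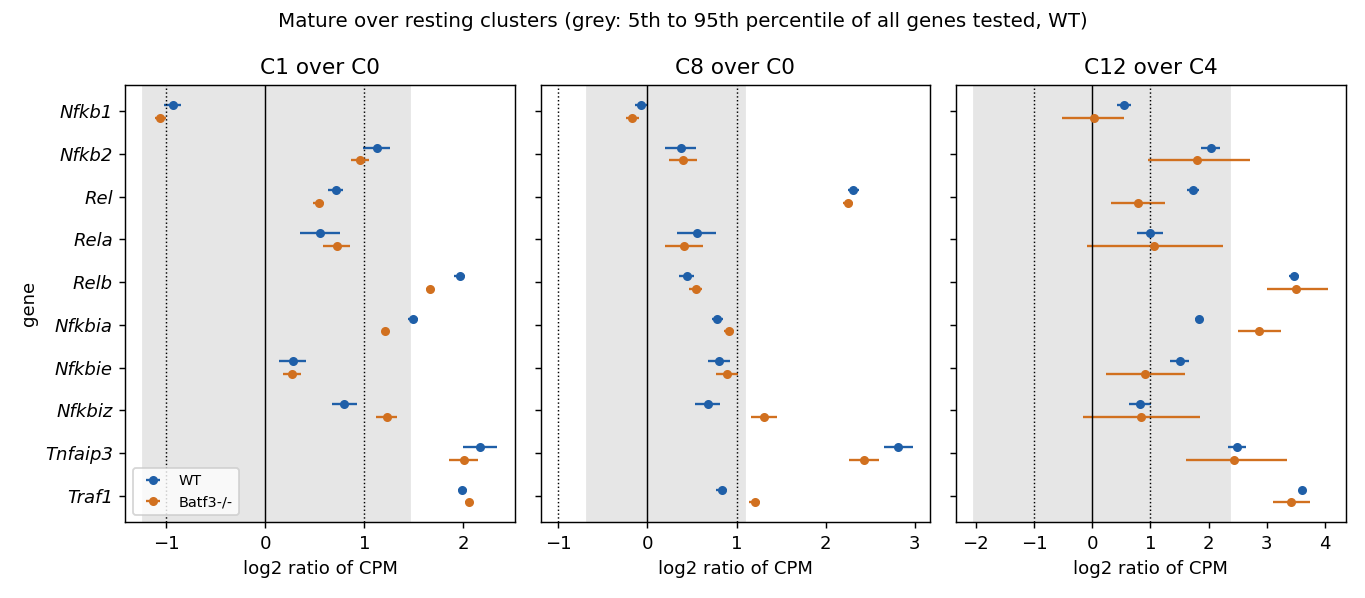
Log2 ratio of CPM of each member for C1 over C0, C8 over C0 and C12 over C4 (1 panel each), WT and Batf3-/- as separate points with exact 95% counting intervals; dotted lines mark 2-fold and the grey band the 5th to 95th percentile of all genes tested in WT. Relb is far right in C1 (1.96 in WT) and C12 (3.47) but not in C8 (0.44), Rel only passes 2-fold in C8 (2.31) and in WT C12 (1.73), and Nfkb1 is left of 0 in C1 (-0.93).

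C8 had another set of high members. At least 2-fold higher in C8 than in C0 were 2 of 10 in WT, beside 5.59% of 7065 tested genes, and 4 in Batf3-/-, beside 5.68% of 7061. The WT count was 6 at 1.5-fold, beside 10.3% of tested genes, and 5 at 2-fold against the pooled resting cells of C0, C2, C3 and C4, beside 6.89%. That WT pool included the 2202 cells of C4, which had less of most members than C0. The members' median was 0.73 against -0.091 in WT and 0.91 against -0.11 in Batf3-/-. Rel, which encodes c-Rel, was at 1133 CPM in C8 and 228 CPM in C0 of the WT library, and 1135 and 238 CPM in the Batf3-/- library. Its ratio was 2.31 (2.26 to 2.37) in WT and 2.25 (2.2 to 2.31) in Batf3-/-. Tnfaip3 was at 175 CPM in C8 and 24.8 CPM in C0 of the WT library, and 138 and 25.6 CPM in the Batf3-/- library, with ratios of 2.81 (2.65 to 2.98) in WT and 2.43 (2.26 to 2.60) in Batf3-/-. Both genes passed 2-fold in both libraries, and Nfkbiz at 0.67 (0.54 to 0.81) in WT and 1.31 (1.16 to 1.46) in Batf3-/- and Traf1 at 0.83 (0.77 to 0.90) in WT and 1.21 (1.15 to 1.27) in Batf3-/- passed it in Batf3-/- alone. Relb, so high in C1, was at 349 CPM in C8 and 257 CPM in C0 of the WT library, and 466 and 319.5 CPM in the Batf3-/- library, a ratio of 0.44 (0.36 to 0.53) in WT and 0.54 (0.47 to 0.62) in Batf3-/-. Nfkb2 had 0.37 (0.20 to 0.54) in WT and 0.40 (0.25 to 0.55) in Batf3-/- and Nfkbia 0.78 (0.72 to 0.85) in WT and 0.92 (0.86 to 0.97) in Batf3-/-. Nfkbie had 0.80 (0.68 to 0.93) in WT and 0.90 (0.77 to 1.02) in Batf3-/-, its largest ratio against C0 among the mature clusters C1 and C8. Nfkb1 was close to its level in C0, with -0.070 (-0.14 to 0.00056) in WT and -0.17 (-0.24 to -0.10) in Batf3-/-, and Rela had 0.55 (0.33 to 0.76) in WT and 0.41 (0.19 to 0.62) in Batf3-/-. The 4 monocyte markers also moved with C8, at 200.3 CPM against 33.9 CPM in C0 of WT and 296 against 46.3 CPM in Batf3-/-. Lyz2 made up 166 and 251 CPM of the C8 sums, with Ly6c2 at 0.965 and 2.35 CPM and Fcgr1 at 0.241 and 0.469 CPM. In C1 these markers were above C0 too, at 127 CPM in WT and 152 CPM in Batf3-/-, of which Lyz2 made up 115 and 132 CPM. Their part in the member values was not tested.

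Set directly against C1, C8 had Rel higher by 1.60 (1.52 to 1.68) in WT and 1.71 (1.66 to 1.77) in Batf3-/- on the log2 scale, and Relb lower, at -1.52 (-1.61 to -1.44) and -1.12 (-1.19 to -1.06). In WT 1 member was 2-fold higher and 2 were 2-fold lower in C8 than in C1, beside 9.67% of genes higher and 6.75% lower. The second lower member was Traf1, at -1.16, against -0.85 in Batf3-/-. Nfkb1 was the reverse, higher in C8 by 0.86 and 0.89. Against C1, C12 had no member 2-fold higher in either library, a count near the 7.04% and 8.56% of all tested genes. In WT 3 members had intervals above 0 and 4 below it, and the share of all tested genes with such intervals is not given here. There C12 had Relb lower at -0.48 (-0.55 to -0.40) and Nfkbiz lower at -0.76 (-0.97 to -0.55), with Traf1 higher at 0.49 (0.44 to 0.54) and Tnfaip3 higher at 0.53 (0.35 to 0.71).

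C8 also stood out for immediate-early genes, transcripts that cells raise within minutes of a stimulus, tissue digestion included. The 26 listed genes of this kind summed to 25883 CPM in C8 of WT and 23291 CPM in Batf3-/-, against 10749.6 and 10106 in C0, 10548 and 11132 in C1 and 8933 and 10153 in C12, and 2 of the 26 were at 0 in the 31 cells of C12 in Batf3-/- and none in the other clusters given. In WT, Fos was at 2603 CPM in C8 and 456 CPM in C0, Atf3 at 1285 and 57.6 CPM and Nr4a1 at 1586 and 207 CPM. The heat shock genes of the same list went the other way, with Hspa1a at 471 CPM in C8 and 1853 CPM in C0. In the C8 cells with no Atf3 UMI, 34 in WT and 33 in Batf3-/-, Rel was at 1271 and 1282 CPM, against 1123 and 1125 CPM in those with one. Tnfaip3 was at 224 and 163 CPM in the cells without and Nfkbia at 1169 and 1049 CPM. With the cells of both clusters limited to those with no Atf3 UMI, a step added after seeing the data, 5 members in WT and 4 in Batf3-/- were 2-fold higher in C8, beside 10.6% and 9.17% of tested genes in the same cells. The part of digestion and of the immediate-early genes, Atf3 included, in these levels was not tested.

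**Figure D3:**
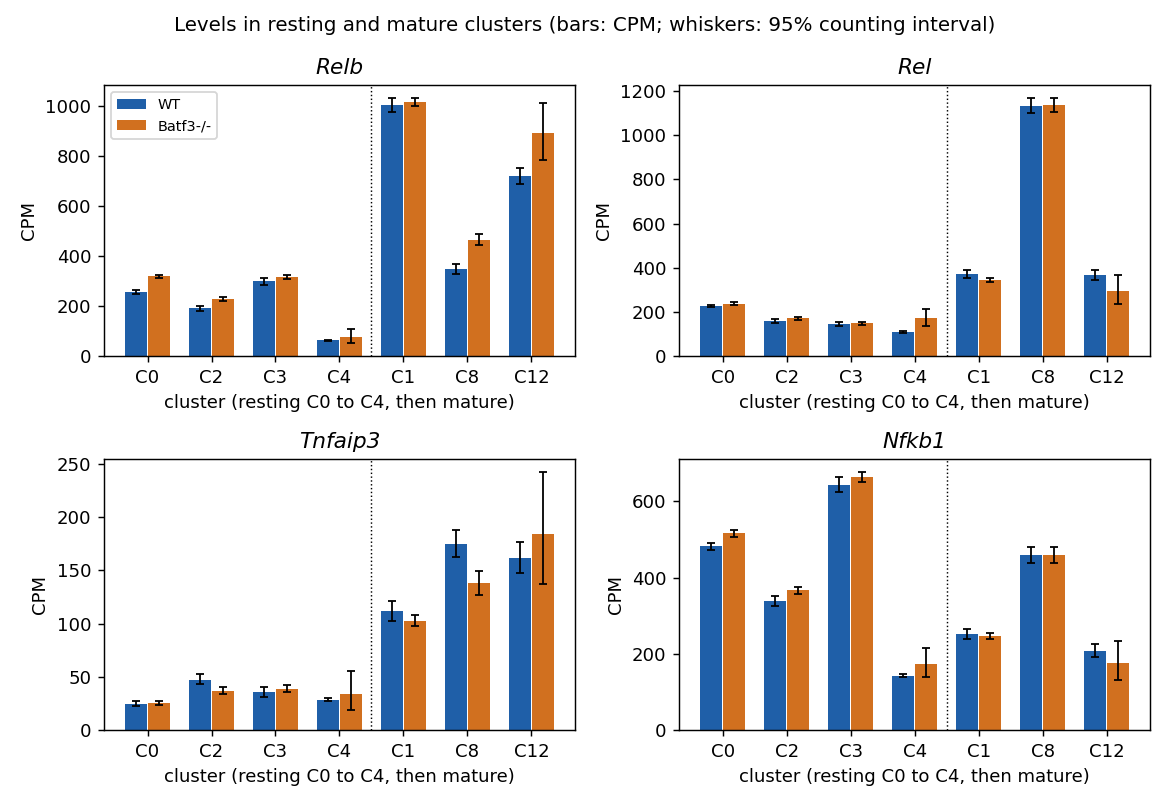
Level in CPM of Relb, Rel, Tnfaip3 and Nfkb1 (1 panel each) in the resting and mature clusters, WT in blue and Batf3-/- in orange bars, with exact 95% Poisson intervals as whiskers. Relb is high in C1 and C12 (1002 and 720.5 CPM in WT), Rel in C8 (1133 CPM), Tnfaip3 in all 3 mature clusters, and Nfkb1 lower in C1 than in C0 (252 and 482 CPM).

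UMI ratios of 2 members within the same cells need no library scaling, although their absolute size also reflects how well each transcript is captured, so they are compared only across clusters. Relb to Rela was 18.05 (16.0 to 20.4) in C1 and 6.78 (6.30 to 7.30) in C0 of WT, and 15.26 and 7.93 in Batf3-/-. It was 11.4 (9.84 to 13.3) in C12 against 2.06 (1.91 to 2.21) in C4 of WT. In C8 it was 6.29 and 8.71, like C0. Nfkb2 to Nfkb1 was higher in the same clusters, from 0.13 in C0 to 0.56 in C1 of WT and from 0.15 to 0.61 in Batf3-/-, and from 0.27 in C4 to 0.75 in C12 of WT. C8 was at 0.18 and 0.22. Both of these ratios thus differed from the resting partner more in C1 and C12 than in C8. Relb to Rel did differ in C8, where it was lower, at 0.308 (0.290 to 0.327) in WT against 1.13 (1.08 to 1.17) in C0 and at 0.41 against 1.34 in Batf3-/-. In C1 it was higher, at 2.68 and 2.93. Rel to Rela was higher in C8 than in C0, at 20.4 (17.9 to 23.4) in WT and 21.21 in Batf3-/-, against 6.02 and 5.91. In C9, whose cells had few UMIs, it was 17.6 (10.6 to 31.2) in WT, which overlaps C8, and 10.21 in Batf3-/-, and Relb to Rela was 29.4 (17.9 to 51.9) in WT, which overlaps C1, and 22.74 in Batf3-/-. Nfkb2 to Nfkb1 was also above C0 in C16, at 0.42 and 0.51, and in C17 of WT, at 0.600 (0.315 to 1.11). It was highest in C18 of WT, at 1.06 (0.515 to 2.19) from 18 and 17 UMIs. In WT the intervals of C2, C4, C6, C8, C9, C11, C13, C14 and C15 also lay above that of C0. Their ratios were lower, from 0.18 in C8 to 0.27 in C4.

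The resting clusters C0, C2 and C3 also differed in these genes, by smaller amounts. The study labels C0 and C2 as cDC2, and C3 as a Sox4+ cDC state with mixed lineage features. C3 had more Nfkb1 than C0, by 0.42 (0.36 to 0.47) in WT and 0.36 (0.33 to 0.40) in Batf3-/- on the log2 scale, and less Rel, at -0.63 (-0.73 to -0.53) in WT and -0.67 (-0.74 to -0.60) in Batf3-/-. C2 had less of both, with Nfkb1 at -0.51 (-0.57 to -0.45) in WT and -0.49 (-0.54 to -0.45) in Batf3-/- and Rel at -0.50 (-0.59 to -0.42) in WT and -0.46 (-0.53 to -0.39) in Batf3-/-. The genes of the feedback proteins did not move as one. Nfkbia was higher than in C0 in both clusters, by 0.57 (0.52 to 0.62) in C2 and 0.50 (0.45 to 0.56) in C3 of WT and by 0.32 and 0.28 in Batf3-/-. Tnfaip3 was also higher in both, by 0.94 (0.75 to 1.13) in C2 and 0.53 (0.29 to 0.76) in C3 of WT and by 0.54 and 0.60 in Batf3-/-. Nfkbie was close to its C0 level in WT, at 98.6 CPM in C2 and 95.7 CPM in C3 against 95.6 CPM, and Nfkbiz was at 97.9 CPM in C2 and 75.3 CPM in C3 against 84.5 CPM in WT and at 68.1 and 58.2 against 53.1 CPM in Batf3-/-. Relb was lower in C2, at -0.42 (-0.50 to -0.34) in WT and -0.49 (-0.55 to -0.43) in Batf3-/-. The mature markers summed in WT to 441 CPM in C2 and 543 CPM in C3, against 316 in C0. Monocyte markers summed in WT to 3328 CPM in C2 against 33.9 CPM in C0. Plasmacytoid markers summed to 1203 CPM in C3 against 187 CPM in C0. The part of these lineage differences in the member values was not tested.

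Among the resting clusters, the cDC1 cluster C4 was below C0 for most members. At least 2-fold lower in C4 were 4 members in each library, beside 10.9% of tested genes in WT and 12.4% in Batf3-/-. In WT these were Nfkb1 at -1.75, Relb at -1.98, Traf1 at -1.12 and Rel at -1.04 on the log2 scale, whereas Tnfaip3 was slightly higher at 0.21 (0.060 to 0.37). Relb, for instance, was at 65.0 CPM in C4 and 257 CPM in C0 of WT. In Batf3-/-, with 31 cells in C4, the members 2-fold lower were Nfkb1, Relb, Nfkbia at 161 against 444 CPM and Nfkb2 at 38.2 against 77.9 CPM. There Rel, at 172 against 238 CPM, and Traf1, at 210.4 against 326 CPM, did not pass 2-fold. The cycling cluster C6 was set against C4. In WT 3 members were 2-fold below C4 (1.62% of tested genes), Relb at -1.0, Nfkbiz at -1.05 and Traf1 at -1.09, whereas Nfkb1 at 149 against 143 CPM and Rela at 31.6 against 31.6 CPM were no lower beyond counting error. In Batf3-/-, with 31 cells in C4, Tnfaip3 at -1.16 and Traf1 at -1.03 were 2-fold lower (5.71% of tested genes), and Nfkb1, at 325 against 174 CPM, and Nfkbia, at 0.62, were higher. The mature markers of C6 summed to 155 CPM in WT, against 385 in C4. The cycling cDC2 clusters C5, C7 and C10, whose proliferation markers summed in WT to 254, 1870.2 and 970.3 CPM against 66.2 in C0, had 0 members 2-fold higher than C0 in either library, beside 5.02, 11.4 and 5.89% of tested genes in WT and 4.42, 11.3 and 5.47% in Batf3-/-, so that a count of 0 is near those shares. The largest upward value there was Tnfaip3 in C7 of WT at 0.71 (0.49 to 0.92), and the largest downward ones were Nfkbia at -0.68 (-0.77 to -0.58) and Nfkbiz at -0.67 (-0.94 to -0.40), both in C10 of Batf3-/-. C11, labelled mature cDC2 in the study, was set against the resting cDC2 cluster C2. In WT it carries the monocyte markers at 6158 CPM, and C2 has them at 3328 CPM. C11 had 0 members 2-fold above C2, where 3.33% and 2.79% of tested genes were. Below 2-fold, 8 members in WT and 4 in Batf3-/- had intervals above 0, and 1 in Batf3-/- had one below it. The share of all tested genes with such intervals is not given here, so these counts do not set the members apart. The members' median was 0.38 against 0.10 over all tested genes in WT and 0.15 against 0.095 in Batf3-/-. The mature markers of C11 summed to 888 CPM in WT, against 441 in C2.

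C9 and C17 also had members above the resting clusters, in cells of lower depth. In C9 5 members in WT and 4 in Batf3-/- were 2-fold above C0, in a comparison where 24.3% and 25% of all tested genes were as well. Relb was at 791 and 1001 CPM and Traf1 at 1495 and 1790.5 CPM. Cells of C9 had a median of 1467 and 1487 UMIs, with 14% and 13.3% of UMIs mitochondrial, against 4.82% in C0 of WT. The mature markers there summed to 1419 and 1522 CPM. In C17, which held 90 WT cells and 1 Batf3-/- cell, a median of 2348 UMIs and 13.7% mitochondrial UMIs, 4 members (Traf1, Tnfaip3, Nfkbie and Nfkb2) were 2-fold above C4, beside 22.5% of tested genes. The part of depth and mitochondrial share in these levels was not tested.

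The plasmacytoid and monocyte clusters were set against C0 as well. C14, with plasmacytoid markers at 11117 CPM in WT, had Tnfaip3 above C0 by 1.38 (1.06 to 1.69) in WT and 1.35 (0.96 to 1.71) in Batf3-/-. Nfkbiz was higher by 0.56 in WT and, at 131 against 53.1 CPM, by 1.31 (1.04 to 1.56) in Batf3-/-, so 1 member in WT and 2 in Batf3-/- were 2-fold higher, beside 11.9% and 12.3% of tested genes, shares that counts of this size do not stand out from. In C14 the genes Rel, Relb, Nfkb1 and Traf1 were each 2-fold lower than in C0 in both libraries, beside 8.45% and 9.07% of tested genes. C15, with monocyte markers at 12823 CPM, had Nfkbiz 2-fold above C0, at 1.47 (1.28 to 1.66) and 1.56 (1.18 to 1.91), the 1 member that much higher, a count near the 10.8% and 12.8% of all tested genes. Relb was 2-fold lower there in WT, at 105 against 257 CPM, as were 6.83% of tested genes, and was at 225 against 319.5 CPM in Batf3-/-. IkB zeta is an atypical IkB that acts in the nucleus on a subset of inflammatory genes.

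Shares of cells with a UMI were taken after each cell had been thinned to 1000 UMIs. Shallower cells, 28 of WT and 42 of Batf3-/-, were dropped. At least 1 Relb UMI was found in 62.4% (58.7 to 65.9) of C1 cells and 22.6% (21.1 to 24.1) of C0 cells in WT, and in 63.9% and 26.2% in Batf3-/-. In C12 the share was 51.3% in WT, against 6.18% in C4. Rel UMIs were in 65.0% (60.7 to 69.0) of C8 cells and 20.7% (19.3 to 22.1) of C0 cells in WT, with 64.0% and 20.1% in Batf3-/-. Without thinning, Rel was found in 98.7% of WT C8 cells, so its high level there was not that of a few cells. Traf1 was in 82.3% of C12 and 13.3% of C4 cells and in 71.4% of C1 and 28.8% of C0 cells of WT. Tnfaip3 was in 16.0% of C8 and 2.24% of C0 cells of WT. For comparison, the cells of C19, whose haemoglobin transcripts summed to 207447 CPM in WT, had Relb UMIs in 3.57% of 28 WT and 8.33% of 36 Batf3-/- cells. Without thinning, Relb stood at 5.65 and 135 CPM and Rel at 5.65 and 44.9 CPM in C19, whose proliferation markers summed to 1600.3 and 693 CPM. Free RNA and transcripts of the C19 cells themselves cannot be told apart in these values. Median depth before thinning in C19 was 2918 and 5249.5 UMIs. At least 3 different members were seen in 62.8% of C1, 54.6% of C8 and 58.5% of C12 cells of WT, against 22.8% of C0 and 6.45% of C4 cells.

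Cells of the resting clusters were also split by whether they held a Ccr7 UMI, since Ccr7 marks maturation and is no member. In C4 of WT, 257 cells had one and 1945 had none, with median depths of 16417 and 15265 UMIs. Relb was at 205 against 44.9 CPM, a log2 ratio of 2.19 (2.07 to 2.32). Traf1 was at 456 against 119.5 CPM, a log2 ratio of 1.93 (1.85 to 2.01). Rel was at 237 against 92.9 CPM, a log2 ratio of 1.35 (1.25 to 1.46). Within the resting cDC1 cluster these 3 transcripts were thus among those higher in the cells that held Ccr7, and Nfkb1 differed little, at 0.31. Doublets were scored in 72 of the 257 cells with Ccr7 (28.0%) and in 8.59% of those without. With all scored doublets left out, a step added after seeing the data, the ratios were 2.32 for Relb, 1.97 for Traf1 and 1.47 for Rel. Tnfaip3 at 1.35 and Nfkbia at 1.14 were then past 2-fold as well, and every member but Rela had an interval above 0. The share of all genes that differ in this split is not given here. In C2, where under 1% of cells in each arm were scored as doublets, Relb was at 428 against 159 CPM, a log2 ratio of 1.42 (1.26 to 1.58), in WT and had a ratio of 0.96 in Batf3-/-. Smaller ratios were found in C0, 0.44 in WT and 0.42 in Batf3-/- for Relb. In C3 of Batf3-/-, with 151 cells with Ccr7 and 1390 without, the ratio was 0.37 (0.25 to 0.49) for Relb and 0.55 (0.42 to 0.68) for Traf1, and with doublets left out 0.36 (0.23 to 0.49) and 0.50 (0.36 to 0.64). In C3 of WT, with 49 cells with Ccr7, the interval for Relb ran from -0.25 to 0.28. Within C8 itself Relb was higher in the cells with Ccr7, by 1.09 in WT and 1.32 in Batf3-/-, where Rel differed by 0.42 and 0.34.

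**Figure D4:**
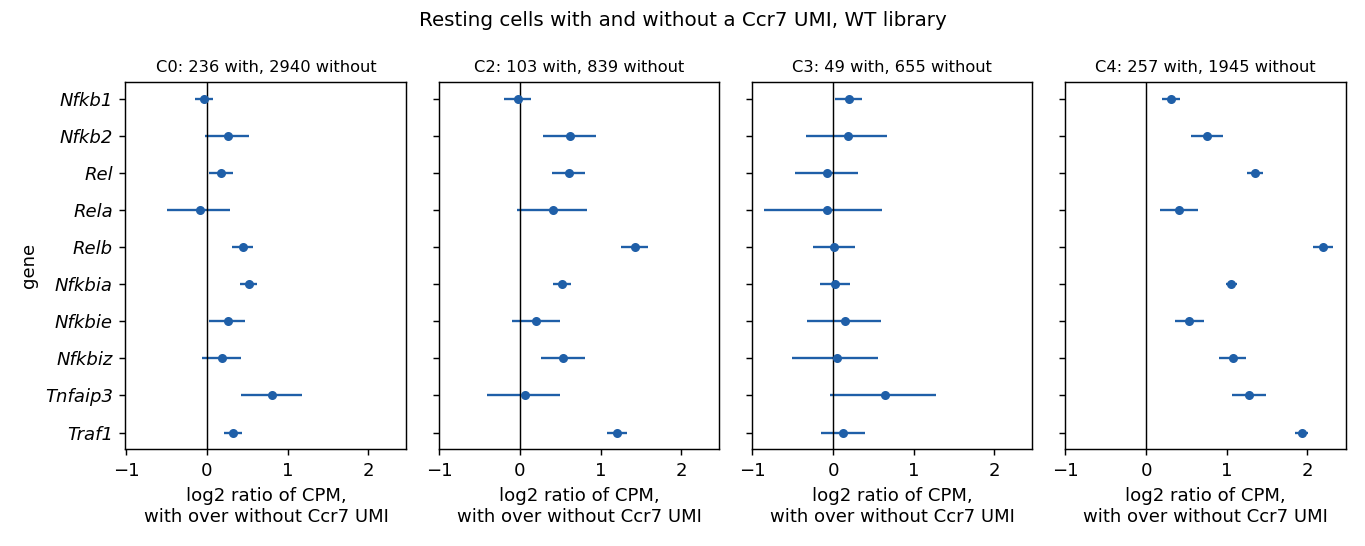
Log2 ratio of CPM of each member in cells with over cells without a Ccr7 UMI in C0, C2, C3 and C4 of the WT library, with exact 95% counting intervals. Relb has the widest spread between clusters, from 0.017 in C3 to 2.19 in C4.

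Genotype was compared within each cluster that had at least 50 cells in both libraries, 15 in all. Relb and Nfkbiz differed one way in almost all of them, in opposite directions. Relb was higher in Batf3-/- in 14 of the 15, with the interval above 0 in 13 and a median log2 ratio of 0.32, and 2.90% of the 4961 genes measured in all 15 were lower in no more than 1. In C0 it was at 319.5 CPM in Batf3-/- and 257 CPM in WT, a log2 ratio of 0.32 (0.26 to 0.37), in C13 at 204 CPM in Batf3-/- and 96.2 CPM in WT, a log2 ratio of 1.08 (0.78 to 1.39), and in C15 at 225 CPM in Batf3-/- and 105 CPM in WT, a log2 ratio of 1.10 (0.70 to 1.5). C13, labelled NK, ILC and T cells in the study, held 146 Batf3-/- and 241 WT cells, and the monocyte cluster C15 held 52 and 145. The cDC1 markers summed to 177 CPM in Batf3-/- and 376 CPM in WT in C13, and to 312 and 1023 CPM in C15. The cells gathered in each thus differed between the libraries, and the part of this in the Relb values was not tested. In C1 the libraries were even, at 0.019 (-0.028 to 0.066). Nfkbiz went the other way, lower in 13 of the 15, with the interval below 0 in 11 and a median of -0.52, as were 5.50% of genes in as many clusters. In C0 Nfkbiz was at 53.1 CPM in Batf3-/- and 84.5 CPM in WT, a log2 ratio of -0.67 (-0.78 to -0.56). At least 1.5-fold lower in Batf3-/- C0 were 0.62% of tested genes. Its ratio was -1.59 in C16, from 18 UMIs in Batf3-/- and 43 in WT, -1.19 in C10 and -1.01 in C11. In C8, C6, C13 and C14 it was nearer to even, at -0.037, -0.091, 0.032 and 0.080, each with an interval that spans 0. In C1 it was -0.24 (-0.37 to -0.12). Nfkb2 was higher in Batf3-/- in all 15, but the interval cleared 0 in 6 and the median was 0.13, and 0.645% of genes were lower in none. Since the clusters of a library share its preparation, a direction common to them is not replication, and all 3 patterns set 1 library against 1.

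Past 1.5-fold in C6 were 2 of the 10 members, both higher in Batf3-/-, and for Nfkb1 this was the largest ratio of the 15 clusters. Nfkb1 was at 325 CPM in Batf3-/- and 149 CPM in WT, a log2 ratio of 1.13 (1.06 to 1.2). Relb was at 60.2 CPM in Batf3-/- and 32.4 CPM in WT, a log2 ratio of 0.89 (0.73 to 1.06). The phase mix differed, with 474 cells in S and 310 in G2M of 797 in WT. In Batf3-/- 354 were in S, 184 in G2M and 189 in G1. Relb was at 64.6 CPM in Batf3-/- against 31.9 CPM in WT in S, but at 37.9 against 32.9 CPM in G2M. Nfkb1 was at 319.6 against 146 CPM in S and 327 against 152 CPM in G2M. At least 1.5-fold higher in Batf3-/- C6 were 5.02% of tested genes, more than in C0 (0.634%). In that cluster the cDC1 markers summed to 1114 CPM in Batf3-/- and 2738 CPM in WT and the cDC2 markers to 227 and 51.0 CPM, with none at 0, so the cells gathered under C6 differed between the libraries, and the part of this in the Nfkb1 and Relb values was not tested. In C1 the members' ratios of Batf3-/- over WT ran from -0.24 to 0.26, and in C8 from -0.34 to 0.42. The highest in C8 was Relb at 0.42 (0.32 to 0.52), beside a 95th percentile of 0.41 over all tested genes. C12 was not compared, since it held 31 cells in Batf3-/-.

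**Figure D5:**
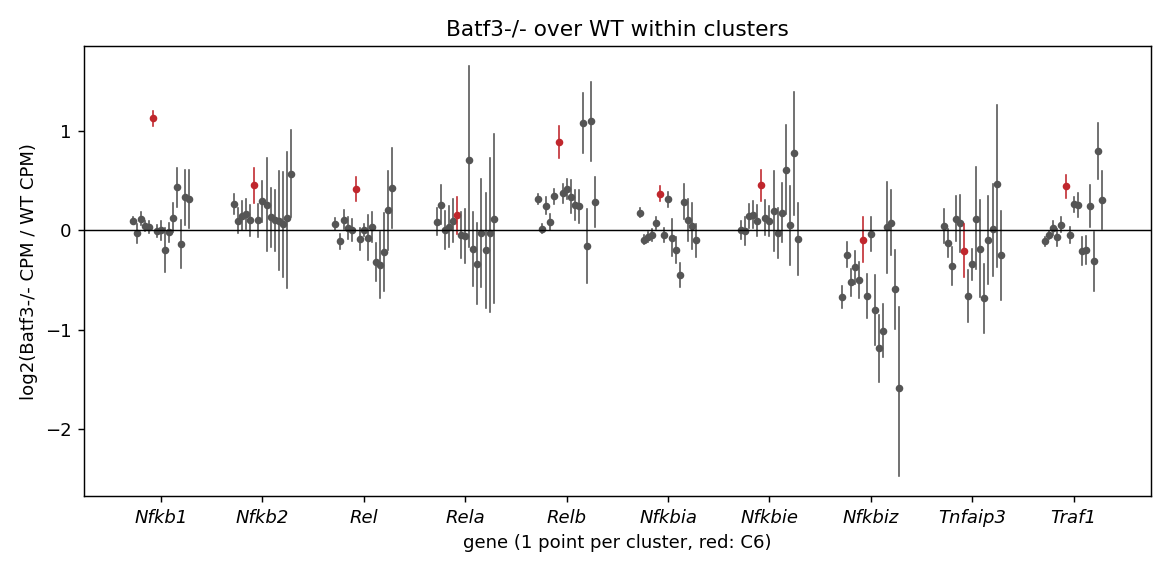
Log2 ratio of CPM, Batf3-/- over WT, of each member in the clusters with at least 50 cells per library (1 point per cluster, C6 in red), with exact 95% counting intervals as lines. Nfkbiz points lie mostly below 0 (median -0.52) and Relb points above it (median 0.32), with Nfkb1 in C6 at 1.13.

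The rest of the pathway was read from 4 lists of genes by role, with values for the genes at the ends of each list. Values are those of WT, with the mature cluster first. A gene below 6.67 CPM in 1 of the 2 clusters passes the filter on low values only by differing over 2-fold, so the list counts, by a step added after seeing the data, take genes at or above that level in both. Beside them stand the shares of all genes at that level that were 2-fold higher, 5.85% in WT and 6.05% in Batf3-/- for C1 over C0, 4.79% and 4.58% for C8 over C0 and 12.8% and 15.6% for C12 over C4. Those 2-fold lower were 7.38% and 8.3%, 1.03% and 1.84%, and 19.2% and 26.4%, in the same order. Of the textbook NF-kB targets counted in this way, 10 of 20 were 2-fold higher and 0 lower in C1 than in C0 of WT, and 10 of 20 were 2-fold higher and 0 lower in Batf3-/-. A further 6 in WT were below that level in C0. The highest ratios, of genes with so little in C0 that they are given as levels only, were those of the chemokine genes Ccl22 at 81.1 against 0.642 CPM and Cxcl16 at 435 against 4.95 CPM, and Il12b at 23.1 against 0.275 CPM. At the low end were Sod2 at -0.27 and Ier3 at -0.14 on the log2 scale. In C8 against C0 8 of 19 were 2-fold higher and 0 lower in WT and 9 of 19 were 2-fold higher and 0 lower in Batf3-/-. The largest ratios were those of Il12b, not in that count, at 47.5 against 0.275 CPM, of Il1b, the gene of the cytokine interleukin 1 beta, at 3479 against 119.8 CPM, and of Ccr7 at 693 against 14 CPM. In C12 against C4 15 of 25 were 2-fold higher and 4 lower in WT and 14 of 23 were 2-fold higher and 5 lower in Batf3-/-. Ccl5 was at 4753 against 104 CPM and Il12b at 471 against 9.72 CPM, whereas Cxcl9 at 89.3 against 608 CPM, Il1b at 63.0 against 200.2 CPM and Cd86 at 89.0 against 225 CPM were lower in C12. So Il1b was far higher in C8 than in its resting partner and lower in C12 than in its own. Ccr7 and Cd83 count both as targets and as mature markers, and Cd40 both as a receptor and as a mature marker. These counts are therefore not independent of the marker sums given for the mature clusters.

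Receptors that signal to NF-kB had members on both sides. In C1 against C0 3 of 8 were 2-fold higher and 3 lower, with Tnfrsf1b, the second TNF receptor, at 148 against 19.8 CPM. Not in that count, being below 6.67 CPM in C0, were Tnfrsf4 (OX40) at 116 against 2.66 CPM and Tnfrsf9 (4-1BB) at 30.8 against 0.367 CPM. Lower in C1 were Tnfrsf13b at 21.1 against 85.0 CPM, Tnfrsf1a, the first TNF receptor, at 14.1 against 43.2 CPM, and Tlr7 at 11.7 against 25.3 CPM. In C12 against C4 3 of 6 were 2-fold higher and 1 lower, and outside that count were Tnfrsf4 at 403 against 2.2 CPM and Tlr3, itself a cDC1 marker, at 1.68 against 107 CPM. In C8 both TNF receptor genes were higher than in C0, Tnfrsf1a at 129.6 against 43.2 CPM and Tnfrsf1b at 99.9 against 19.8 CPM, and Cd40 was at 51.6 against 61.5 CPM. There 2 of 8 were 2-fold higher and 0 lower.

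Among kinases and adaptors, in C1 against C0 3 of 20 were 2-fold higher and 1 lower in WT and 3 of 20 were 2-fold higher and 1 lower in Batf3-/-, with Birc2 at 501 against 82.0 CPM, Birc3 at 203 against 85.7 CPM and Traf6 at 22.9 against 9.86 CPM at the top and Myd88, the adaptor of most Toll-like receptors, at 26.3 against 70.2 CPM at the bottom. Birc2 and Birc3 encode the cIAP ubiquitin ligases, which with Traf3 restrain the non-canonical kinase NIK. In C12 against C4 9 of 20 were 2-fold higher and 1 lower, again with Birc2 at 583 against 39.7 CPM, and with Traf3 at 61.3 against 12.4 CPM and Birc3 at 309.7 against 71.4 CPM. In C8 against C0 1 of 20 were 2-fold higher and 0 lower, a share close to that of all genes, the former being Malt1 at 600.3 against 229 CPM, and the gene of NIK, Map3k14, was at 124 against 64.3 CPM. Of the other inhibitors and deubiquitinases 2 of 15 were 2-fold higher and 0 lower in C1 against C0, 3 of 15 were 2-fold higher and 0 lower in C8 against C0 and 5 of 16 were 2-fold higher and 0 lower in C12 against C4. Bcl3, an atypical IkB that binds p50 and p52 pairs, was at 81.3 against 29.3 CPM in C1 and C0 and at 45.5 against 9.01 CPM in C12 and C4. In C8 the high ones were Nfkbid, a further nuclear IkB, at 205 against 69.5 CPM, Zc3h12a, the gene of the RNase Regnase-1, at 58.6 against 20.6 CPM, and Cyld, a deubiquitinase, at 241 against 118 CPM.

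Finally, each member was compared with 5330 genes by Pearson's r of log2(CPM + 10) over the 17 clusters with at least 100 cells, both libraries pooled. These values describe the clusters, which share libraries and were built from such genes, and carry no p. Relb was most like Aebp2 (r = 0.97) and Nfkb2 (r = 0.96), and Nfkb2 most like Il4i1 (r = 0.96) and Relb (r = 0.96). Traf1 was most like Mreg (r = 0.97) and Lrrk1 (r = 0.96) and Nfkbia most like Il4i1 (r = 0.94) and Nfkb2 (r = 0.94). Rel was most like Specc1 (r = 0.94) and Polb (r = 0.92) and Tnfaip3 most like Ccr7 (r = 0.93) and Ell2 (r = 0.92). Nfkb1 followed Lta4h (r = 0.91) and Bbs9 (r = 0.88), Nfkbiz Lnpep (r = 0.85) and Nxpe4 (r = 0.85), Nfkbie Plxnc1 (r = 0.87) and Usp18 (r = 0.85), and Rela, least closely, Ccl5 (r = 0.83) and Fas (r = 0.78). Between members, the highest r was 0.96 for Nfkb2 and Relb, the partners of the non-canonical pathway, and the lowest -0.24 for Nfkb1 and Tnfaip3, which was -0.12 in WT alone and -0.46 in Batf3-/- alone.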

How the data were processed

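Spleens of 6 mice per genotype were pooled, and sorted cells were run as 1 CITE-seq library per genotype. Per the submitters' processing notes the reads were handled with bcl2fastq 2.2.0, Cell Ranger and Seurat 3.0.5 on GRCm38. The authors evened the sequencing depth of the libraries, filtered cells on genes and on mitochondrial and ribosomal share, and deposited UMI counts per gene and cell together with clusters, phases and, per cell, the fraction of mitochondrial and ribosomal UMIs. Totals recomputed from the deposited counts matched the deposited per-cell totals in 24343 of 24343 cells. Normalized and antibody tables were not used, since no member has an antibody in the panel. Evened depth means that per-cell totals are not those of the raw libraries. UMI counts were summed per cluster and library and divided by all UMIs there (CPM), with exact Poisson intervals. Log2 ratios carry exact conditional binomial intervals and shares exact Clopper-Pearson intervals, at 95%. Genes needed a mean of at least 10 CPM and 20 UMIs over both sides, and pathway genes were counted only at 6.67 CPM or more on each side. With 1 library per genotype there is no test and no p-value. Doublets were scored with Scrublet in scanpy 1.11.5 at an expected rate of 0.1 (4.43% of WT and 2.01% of Batf3-/- cells) and kept. The code was tested on simulated data. Python 3.11.15, numpy 2.4.6, scipy 1.17.1, pandas 2.3.3 and matplotlib 3.10.9 were used. Named genes were all 10 members, the 3 highest and 3 lowest WT ratios of each pathway list in each main comparison (of which some are printed), and the genes most like each member. Members and lists were chosen with earlier results of these data known. Alternatives were another total, per-cell means, doublets or shared barcodes left out, G1 cells, thinned cells, pooled resting cells, other folds, other filters and cells with no Atf3 UMI.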

Additional observations from a re-analysis of the deposited data

Results flagged for a closer look

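As a share of all UMIs, Nfkb1 went opposite ways in the mature clusters. Its log2 ratio was -0.93 in WT and -1.06 in Batf3-/- for C1 over C0, and -0.070 in WT and -0.17 in Batf3-/- for C8 over C0. For C12 over C4 it was 0.54 in WT and 0.024 in Batf3-/-, above 0 in each library where the others were below it. In WT the C8 interval, and in Batf3-/- the C12 interval, spanned 0. The cells of C12 and C4 also differed in depth, with medians of 6887.5 and 15398.5 UMIs in WT. Nfkb1 had 616 UMIs in the 394 cells of C12 there and 4877 UMIs in the 2202 cells of C4, so per cell it was not higher in C12. The direction depends on the resting reference: with the resting cells of C0, C2, C3 and C4 pooled, the WT ratio was -0.60 for C12, 0.55 for C8 and -0.32 for C1, and the Batf3-/- ratio for C12 was -1.53. C4, which had less Nfkb1 than C0, gave 2202 cells to that pool in WT and 31 in Batf3-/-. The pooled reference is therefore not alike in both libraries. The difference between these comparisons was not tested, and C1 and C8 share the C0 cells as reference.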

How the results depend on the processing

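With 1 library per genotype no replicate could be left out. No paired analysis was possible because each genotype has 1 library. Of 66 recomputed counts of members past 2-fold, 60 stayed within 1.5 times the reported count. At 3-fold, the count for C1 over C0 was 3 in WT and 3 in Batf3-/-, beside 4.53% and 4.97% of all tested genes, and for C8 over C0 it was 2 in Batf3-/-, beside 3.3%. For C8 over C0 in WT, where 2 were reported, the count was 6 at 1.5-fold, 5 against the pooled resting cells of C0, C2, C3 and C4, and 5 in cells with no Atf3 UMI, an alternative chosen after seeing the data. All tested genes passed at 10.3%, 6.89% and 10.6% there. Of 539 recomputed log2 ratios, 340 stayed within the reported counting interval, 191 left it with the same sign, 7 left it with the other sign and 1 fell to 0. Of the 7, 6 were Nfkb1. In cells with no Atf3 UMI Nfkb1 was at 0.26 in WT and 0.0092 in Batf3-/- for C8 over C0, and Rela at -0.0023 in Batf3-/-. Against the pooled resting cells Nfkb1 was at 0.55 for C8 in WT and at -0.60 and -1.53 for C12 in WT and Batf3-/-. C4 gave that pool 2202 cells in WT and 31 in Batf3-/-. Less the median of all genes it was at 0.021 for C8 over C0 of WT. Nfkbie in C12 over C4 of Batf3-/- was the 1 at 0 outside its interval, after thinning to 2000 UMIs. A further 3 changed sign within their interval, all Nfkb1 in C12 over C4 of Batf3-/-. Another 1 was at 0 within its interval. Ratios of the Ccr7 split stayed within their intervals in 67 of 70 without doublets. Shares of cells moved in 88 of 200, 87 of them on thinning to 2000 in place of 1000 UMIs, which finds more transcripts per cell. The 31 Batf3-/- cells in C4 and in C12 limit that comparison, and no interval covers the spread between mice.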
